A study of Pan troglodytes and Macaca mulatta with 12 samples.

Results

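A stretch of chromosome 1 from 111400000 to 111650000, in the coordinates of the deposited exon counts, was examined gene by gene in lymphoblastoid cell lines (LCLs, B lymphocytes immortalised for continued culture) of chimpanzee and of rhesus macaque, called macaque below. The members were all gene identifiers whose listed exons lay wholly inside these limits. There were 5 such genes of 16903 in the files, numbered here 1 to 5 by their start. The stretch was selected on the measured species difference, because neighbouring genes in it were higher in chimpanzee than in macaque. The species differences below are therefore a description. Calls of the fit over all genes are counted for them beside the share over all genes, and nothing is read from those calls.

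Libraries were made from total RNA of 6 chimpanzee lines (3 female and 3 male) and 6 rhesus macaque lines (2 female and 4 male). Each line came from a separate individual, no treatment is given, and every species difference is also a difference between 2 sets of established cultures. Library totals ran from 1434241 to 4751954 counts in chimpanzee and from 1801830 to 4600137 counts in rhesus macaque. An immortalised line is a model of a proliferating B cell and not of resting blood B cells. In these bulk libraries, fewer cells of a kind and less RNA per cell cannot be told apart.

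The stretch is described as holding DRAM2, CEPT1, DENND2D and CHI3L2. The chimpanzee RefSeq gene list has these 4 genes as successive protein-coding entries. DRAM2 encodes a lysosomal membrane protein linked to autophagy, the process by which a cell digests its own components. CEPT1 encodes the choline and ethanolamine phosphotransferase that completes the synthesis of the membrane lipids phosphatidylcholine and phosphatidylethanolamine. DENND2D belongs to the DENN domain proteins, exchange factors that switch on Rab GTPases and so steer vesicle traffic. CHI3L2 is a chitinase-like protein, a relative of the chitinases that has no chitin-cleaving activity. The files carry human Ensembl identifiers and no names. The name tables used here hold chimpanzee genes only, and 0 of the 16903 identifiers matched them. Which identifier carries which of these names was therefore not assigned, and the B cell label could not be checked against marker genes.

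Genes 1, 2 and 3 lie close together and gene 4 stands apart from them. Gene 1 spans 20.3 kb, from 111461478 to 111481731, with 7 counted exons. Gene 2 begins 2040 bases further on and spans 45.5 kb, from 111483772 to 111529247, with 10 counted exons. Gene 3, ENSG00000162777, begins 2078 bases after gene 2 and spans 12.6 kb, from 111531326 to 111543943, with 11 counted exons. A gap of 27.9 kb separates it from gene 4, ENSG00000064886, which spans 15.8 kb from 111571804 to 111587583 and also has 11 counted exons. No exon of these genes overlapped an exon of another gene in the files. Gene 5, from 111625696 to 111626620, has a single exon.

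The 4 genes with enough counts to be tested were all higher in chimpanzee. Genes 1 and 2 were present in both species at moderate levels. Genes 3 and 4 were read in every line of both species. Gene 3 had 62 to 418 counts in each chimpanzee library and 6 to 16 in each macaque library. Gene 4 had 8 to 1343 counts in each chimpanzee library and 1 to 15 in each macaque library. All 4 were called higher and 0 lower by the edgeR quasi-likelihood test at an adjusted p under 0.05, where 24.7% of all 9440 genes tested were called higher in chimpanzee, 23.5% lower and 48.2% in either direction. The p-values here and below cover the spread between these lines, with 1 library each. The 4 genes' median log2 fold change, chimpanzee minus macaque, was 3.08, beside 0.04 over all genes tested. Genes 3 and 4 passed the expression filter through their levels in the chimpanzee lines, so the direction of their calls was largely set beforehand. Since the stretch was also picked for this contrast, nothing is read from the number of genes called or from their median fold change.

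Gene 1 ranged from 82.4 to 113 CPM (counts scaled to a common library size) in the chimpanzee lines, with a median of 85.1 CPM, against 12.5 to 33.0 CPM in the macaque lines, with a median of 24.2 CPM. The groups did not overlap, and 5 of the 6 chimpanzee lines lay between 82.4 and 89.5 CPM. The means were 89.8 ± 11.6 CPM in chimpanzee and 23.3 ± 7.53 CPM in macaque (SD, n = 6 each). The log2 fold change was 1.93 (standard error 0.23).

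Gene 2 ranged from 84.1 to 241 CPM in the chimpanzee lines (median 108 CPM) and from 31.9 to 56.5 CPM in the macaque lines (median 46.4 CPM). Again every chimpanzee line lay above every macaque line, with chimpanzee replicate 1 well above the other 5. The means were 128 ± 58.8 CPM in chimpanzee and 46.0 ± 8.84 CPM in macaque (SD, n = 6 each). The log2 fold change was 1.47 (standard error 0.27).

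Gene 3 was separated between the species and low in macaque. It ranged from 25.4 to 141 CPM in the chimpanzee lines (median 94.4 CPM) and from 1.30 to 9.76 CPM in the macaque lines (median 3.84 CPM). The lowest chimpanzee line, replicate 2, still lay above the highest macaque line, replicate 1. The macaque levels rest on 69 counts over the 6 libraries, between 6 and 16 in each, against 1386 counts in chimpanzee. The means were 86.3 ± 46.5 CPM in chimpanzee and 4.86 ± 3.15 CPM in macaque (SD, n = 6 each). The log2 fold change was 4.22 (standard error 0.53).

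Gene 4 had a ratio of means of 45.2 and the highest SD between chimpanzee lines of the 4 genes. It ranged from 5.58 to 542 CPM in the chimpanzee lines (median 53.3 CPM) and from 0.610 to 7.48 CPM in the macaque lines (median 1.78 CPM). The groups overlapped, since chimpanzee replicate 1 lay at 5.58 CPM and macaque replicate 3 at 7.48 CPM. Chimpanzee replicate 5 alone held 1343 of the 2105 chimpanzee counts. All 6 macaque libraries together held 47 counts, from 1 to 15 in each. The means were 127 ± 206 CPM in chimpanzee and 2.81 ± 2.50 CPM in macaque (SD, n = 6 each). The log2 fold change was 5.49 (standard error 1.03). Without chimpanzee replicate 5 the ratio of means was 15.6 and the log2 fold change 3.96. Gene 3 without the same line had 19.7 and 4.36, so which of genes 3 and 4 differed more turns on that line.

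Gene 5 had 0 counts in all chimpanzee libraries and 1 count in macaque, in replicate 3. A count of 0 over the 16206228 chimpanzee counts allows a level of up to 0.185 CPM (taken on the library totals), from a floor of 3 counts over the 6 libraries that covers counting error only. The gene was below the expression filter and no difference was detectable at this depth. Genes 1, 2 and 3 thus had every chimpanzee line above every macaque line, and 13.3% of all genes tested did so.

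**Figure D1:**
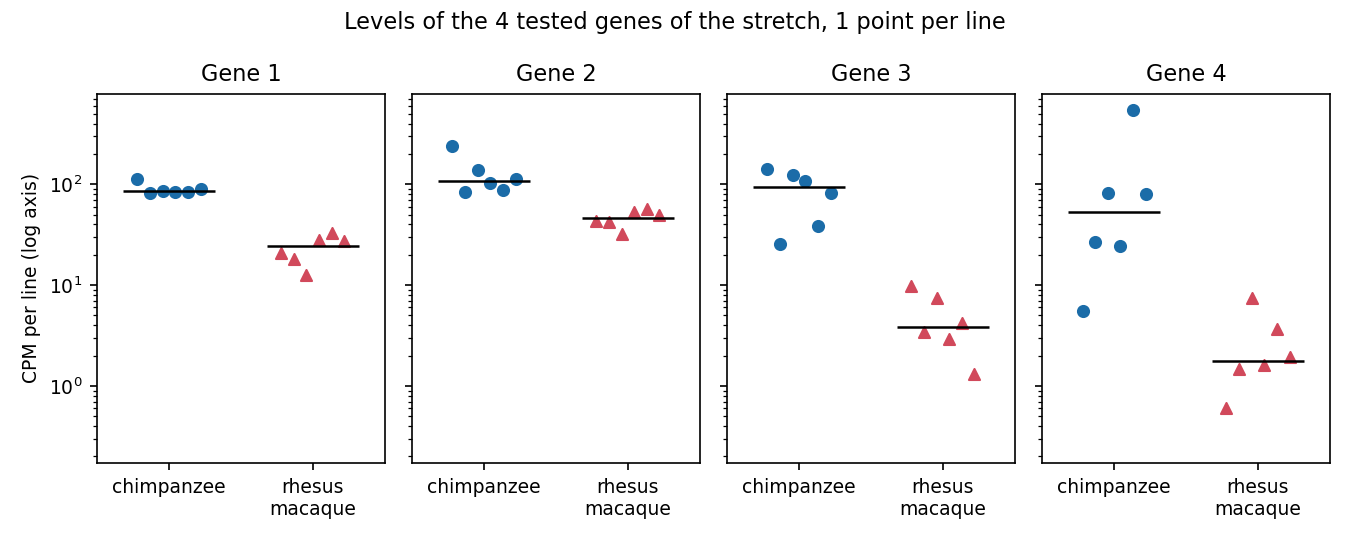
CPM of genes 1 to 4 in each line on a log axis, chimpanzee lines as blue circles left of macaque lines as red triangles, with black bars at the median of 6 lines. Genes 1, 2 and 3 show no overlap, and gene 4 spreads from 5.58 to 542 CPM in chimpanzee and overlaps the highest macaque line at 7.48 CPM.

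Set against exon length, the 4 genes had mean levels within 48.7 to 78.8 CPM per kb in chimpanzee and 1.74 to 19.6 CPM per kb in macaque. The mean level per kb of counted exon in chimpanzee was 58.8 CPM for gene 1, 54.5 CPM for gene 2, 48.7 CPM for gene 3 and 78.8 CPM for gene 4. In macaque the order from high to low was gene 2 at 19.6 CPM per kb, gene 1 at 15.3 CPM per kb, gene 3 at 2.74 CPM per kb and gene 4 at 1.74 CPM per kb. The chimpanzee mean of gene 4 is carried largely by replicate 5, and the chimpanzee means of the 4 genes differed by less than the SD of gene 4 between lines. Together the 4 genes took 0.0439% ± 0.0180 of the library in chimpanzee and 0.00740% ± 0.00151 in macaque (SD, n = 6 each).

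The limits of the stretch were compared with the 3 nearest tested genes on each side. The last tested gene before it, from 111291336 to 111308089 and 153 kb from gene 1, had 55.5 ± 21.2 CPM in chimpanzee and 31.1 ± 7.11 CPM in macaque (SD, n = 6 each). The log2 fold change was 0.84 (standard error 0.26), and 0.42 (standard error 0.30) without the strongest exon of each gene. The groups overlapped, with chimpanzee replicate 5 at 37.1 CPM and macaque replicate 1 at 39.1 CPM. The gene before that, from 111217245 to 111244081, had a log2 fold change of 1.29, with 517 ± 89.6 CPM in chimpanzee and 211 ± 39.9 CPM in macaque. The next gene out, from 111016610 to 111019178, stood at -0.18 (standard error 0.77). Chimpanzee replicate 2 held 128 of its 235 chimpanzee counts, and without that line the value was -1.23. With each of the other libraries left out in turn it lay on both sides of 0, so no direction is given for it. The first tested gene after the stretch, from 111784036 to 111793353, went the other way. It had 96.3 ± 13.6 CPM in chimpanzee (median 92.1 CPM) and 154 ± 64.6 CPM in macaque (median 122 CPM). Its log2 fold change was -0.67 (standard error 0.23). Macaque replicate 3 was its highest line, at 281 CPM, and without that line the value was -0.42. The following genes, from 112035479 to 112057624 and from 112100791 to 112107152, stood at 1.66 and 0.11. Genes 3 and 4 had the highest fold changes of the 10 genes compared. The fold change of gene 2 lay below that of the gene starting at 112035479, outside the limits.

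**Figure D2:**
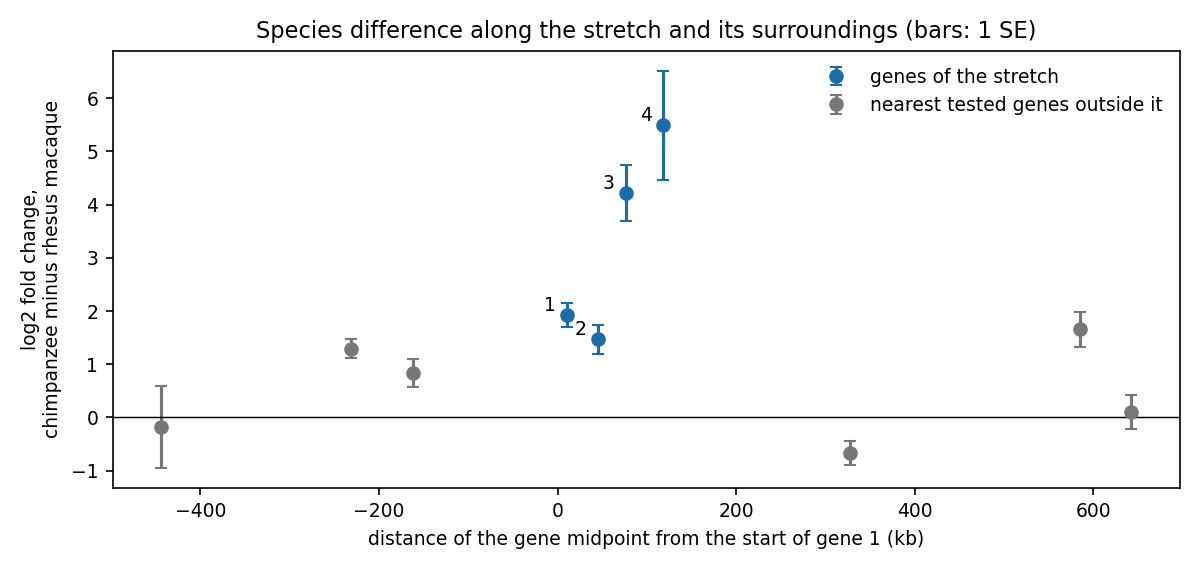
Log2 fold change (chimpanzee minus macaque) of genes 1 to 4 in blue and of the 3 nearest tested genes on each side in grey, against the distance of the gene midpoint from the start of gene 1 in kb, with bars of 1 standard error. Genes 3 and 4 stand at 4.22 and 5.49, and the grey genes lie between -0.67 and 1.66.

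The difference was next followed exon by exon, to see whether single exons carried it. All 39 exons of genes 1 to 4 had a higher mean CPM in chimpanzee, as did 60.3% of the 91350 exons of all tested genes. Every chimpanzee line lay above every macaque line in 18 of the 39, namely 5 of 7 in gene 1, 3 of 10 in gene 2, 7 of 11 in gene 3 and 3 of 11 in gene 4, beside 7.05% of all those exons. The gene level is the sum of these exons, so their direction is part of the same description. In gene 1 the ratio of mean CPM, chimpanzee over macaque, ran from 2.66 in exon 3 to 4.83 in exon 6. In gene 3 it ran from 12.1 in exon 9 to 51.8 in exon 8, with a median of 17.1. Every exon of gene 3 had a count in macaque, but exon 9 had 3 in all and exon 8 had 1. In gene 4 it ran from 16.9 in exon 11 to 145 in exon 6, with a median of 45.6 over the 10 exons with a count in macaque. The 145 rests on 2 macaque counts, and chimpanzee replicate 5 held 124 of the 190 chimpanzee counts of exon 6. Without that line the ratio was 48.7 in exon 6 and 8.64 in exon 11. Its exon 4, of 57 bases, had 41 counts in chimpanzee and 0 in macaque.

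In gene 2 the ratios ran from 1.74 in exon 1 to 8.56 in exon 6, a wider relative range than in gene 1. The longest exon, exon 10 of 912 bases, took 37.7% ± 2.17 of the gene's counts in chimpanzee and 47.2% ± 9.84 in macaque (SD, n = 6 each). Exon 5, of 142 bases, took 7.68% ± 1.24 in chimpanzee and 3.00% ± 2.92 in macaque, and exon 6 had 47 counts in chimpanzee beside 8 in macaque. Exon 5 had 35 counts over the macaque libraries, so these shares carry wide counting error. In genes 1 to 4 the order of exons by their share of the pooled counts was alike in both species, with Spearman's rho of 0.857, 0.930, 0.921 and 0.764 over 7, 10, 11 and 11 exons. Exons of a gene share their libraries and their lengths, and these values are a description only. In macaque the order rests on 69 counts for gene 3 and 47 for gene 4, and carries wide counting error. Chimpanzee replicate 5 held 1343 of the 2105 pooled chimpanzee counts of gene 4. Whether any of these reads also matched related genes was not tested.

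**Figure D3:**
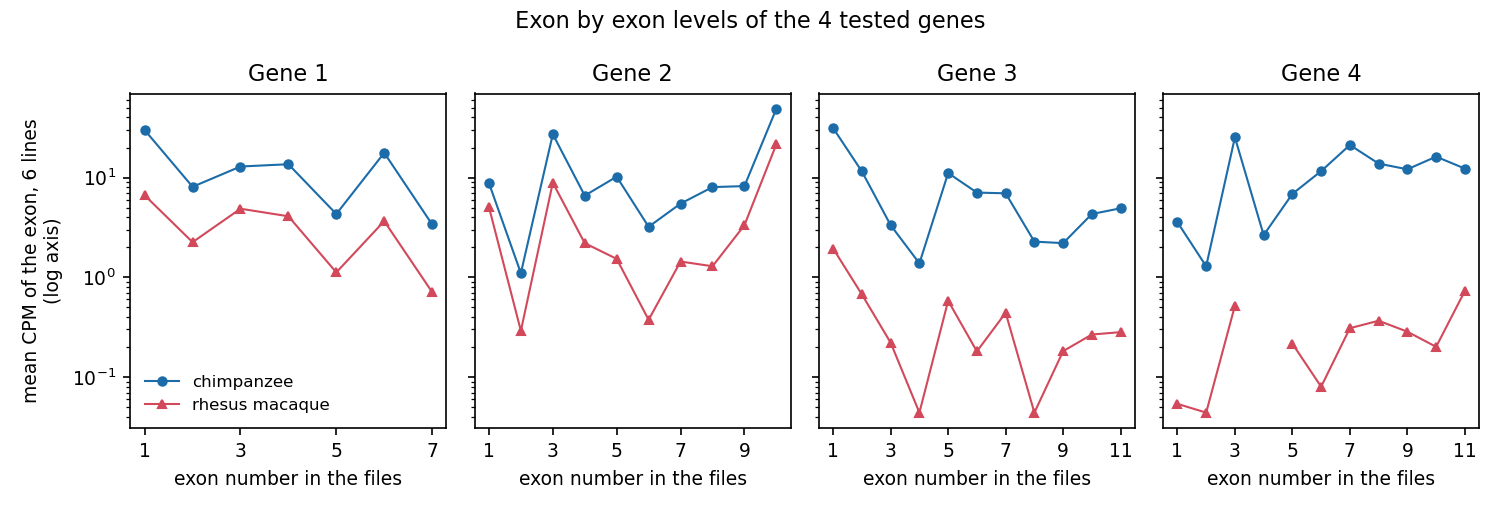
Mean CPM of each counted exon over 6 lines on a log axis, against the exon number in the files, for genes 1 to 4, with chimpanzee in blue circles and macaque in red triangles. The blue circles lie above the red triangles at every exon with a count in macaque, and exon 4 of gene 4, with 0 counts in macaque, has no red point.

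The spread of the genes between lines of the same species was described next. The stretch was chosen on the species difference, and a clear species difference depends in part on this spread. The SD of log2 CPM of gene 1 was 0.17 in chimpanzee, above 3.31% of all tested genes, and 0.50 in macaque, above 57.8% of them. Without chimpanzee replicate 1 the chimpanzee SD of gene 1 was 0.05. Gene 2 had an SD of 0.56 in chimpanzee and 0.29 in macaque, and these were 0.29 without chimpanzee replicate 1 and 0.18 without macaque replicate 3. The SD of gene 3 was 0.98 in chimpanzee and 0.85 in macaque. Gene 4 had an SD of 2.17 in chimpanzee, above 99.4% of tested genes, and 0.91 in macaque. The medians over all tested genes were 0.48 in chimpanzee and 0.45 in macaque. In macaque the SDs of genes 3 and 4 rest on few counts per library and hold counting error. They also depend on the prior count, a small count added before the log2 step. With a prior count of 0.5 in place of 2, gene 3 had 0.99 in chimpanzee and 0.98 in macaque. Gene 4 then had 2.21 in chimpanzee and 1.13 in macaque.

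Genes 1 and 2 kept the same order of lines in macaque. Gene 1 had 33.0, 27.8 and 27.7 CPM in macaque replicates 5, 4 and 6, and 20.7, 18.3 and 12.5 CPM in replicates 1, 2 and 3. Gene 2 had 56.5, 52.7, 49.5, 43.3, 42.0 and 31.9 CPM in the same order of lines. Across these 6 lines the log2 CPM of both genes gave Pearson's r = 0.991 (exact permutation test, two-sided, p = 0.00139, adjusted over 6 relations p = 0.00833) and Spearman's rho = 1.0 (exact permutation p = 0.00278, adjusted p = 0.0167). Both unadjusted p-values are the lowest that the 720 pairings of 6 lines allow for the measure, so they grade its strength no further. Without replicates 3 and 5, the lines farthest from the median, r was 0.967 over 4 lines. Among all 9417 pairs of neighbouring tested genes, r in macaque had a median of 0.16, and 0.0425% of pairs were at or above 0.991. Among the 2369 pairs no more than 10 kb apart, as these genes are, the median was 0.24 and the share 0.0844%. The 3 deepest macaque libraries, replicates 4, 5 and 6, were the 3 highest for both genes, which was the case for 10.3% of tested genes. Set against the log2 library total over the 6 macaque lines, gene 1 gave r = 0.762 (exact permutation test, two-sided, p = 0.0792, adjusted over 8 relations p = 0.293) with rho = 0.600 (exact permutation p = 0.242, adjusted p = 0.483). Gene 2 gave r = 0.709 (exact permutation p = 0.110, adjusted p = 0.293), also with rho = 0.600 (exact permutation p = 0.242, adjusted p = 0.483). Without replicates 1 and 6, the libraries farthest from the median total, these r were 0.931 and 0.896 over 4 lines. Neither passed, and both were positive, beside a median r with depth of 0.01 over all tested genes. None of the 8 relations of genes 1 to 4 with depth passed, and the lowest p was that of gene 3 in macaque (r = -0.825, exact permutation p = 0.0375, adjusted p = 0.293). Gene 3 had 6 to 16 counts in each macaque library. Its rho with depth there was -0.714 (exact permutation p = 0.136, adjusted p = 0.483). Without replicates 1 and 6 its r was -0.453 over 4 lines, and a cause was not tested. The part of depth in the relation between genes 1 and 2 was not tested.

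In chimpanzee the same pair gave r = 0.932 (exact permutation test, two-sided, p = 0.0236, adjusted p = 0.0708) and rho = 0.886 (exact permutation p = 0.0333, adjusted p = 0.0667), which did not pass. On library totals with no scaling factor r was 0.934 and passed (exact permutation test, adjusted p = 0.0417). Of the pairs within 10 kb, 3.72% had an r in chimpanzee at or above 0.932. Chimpanzee replicate 1 was the highest line for both genes, and without replicates 1 and 6 r was 0.915 over 4 lines. Genes 2 and 3 gave r = 0.780 in chimpanzee (exact permutation p = 0.0514, adjusted p = 0.103) with rho = 0.943 (exact permutation p = 0.0167, adjusted p = 0.05), neither of which passed, and without replicates 1 and 3 r was 0.899. An r of this size or above was found in 16.5% of pairs within 10 kb in chimpanzee, where the median was 0.36. In macaque that pair gave r = -0.535 (exact permutation p = 0.275, adjusted p = 0.413) and rho = -0.371 (exact permutation p = 0.497, adjusted p = 0.597), and r = -0.582 without replicates 3 and 5. Gene 3 had only 6 to 16 counts in each macaque library. A difference between the species in these correlations was not tested.

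Genes 3 and 4 gave no correlation that passed in either species. The pair gave r = -0.421 in chimpanzee (exact permutation p = 0.417, adjusted p = 0.5), with rho = -0.429 (exact permutation p = 0.419, adjusted p = 0.597) and r = -0.649 without replicates 2 and 5. Chimpanzee replicate 1 was the highest of the 6 for gene 3, at 141 CPM, and the lowest for gene 4, at 5.58 CPM. Chimpanzee replicate 5 was next to lowest for gene 3, at 38.7 CPM, and highest for gene 4, at 542 CPM. In macaque the pair gave r = 0.0691 (exact permutation p = 0.906, adjusted p = 0.906) and rho = -0.0857 (exact permutation p = 0.919, adjusted p = 0.919). Without macaque replicates 1 and 6 r was 0.959 over 4 lines, so the value rests on those lines. Gene 3 had 6 to 16 counts and gene 4 had 1 to 15 in each macaque library. At such counts a relation could go unseen. Of the 6 relations, 1 passed at an adjusted p under 0.05 by both measures.

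**Figure D4:**
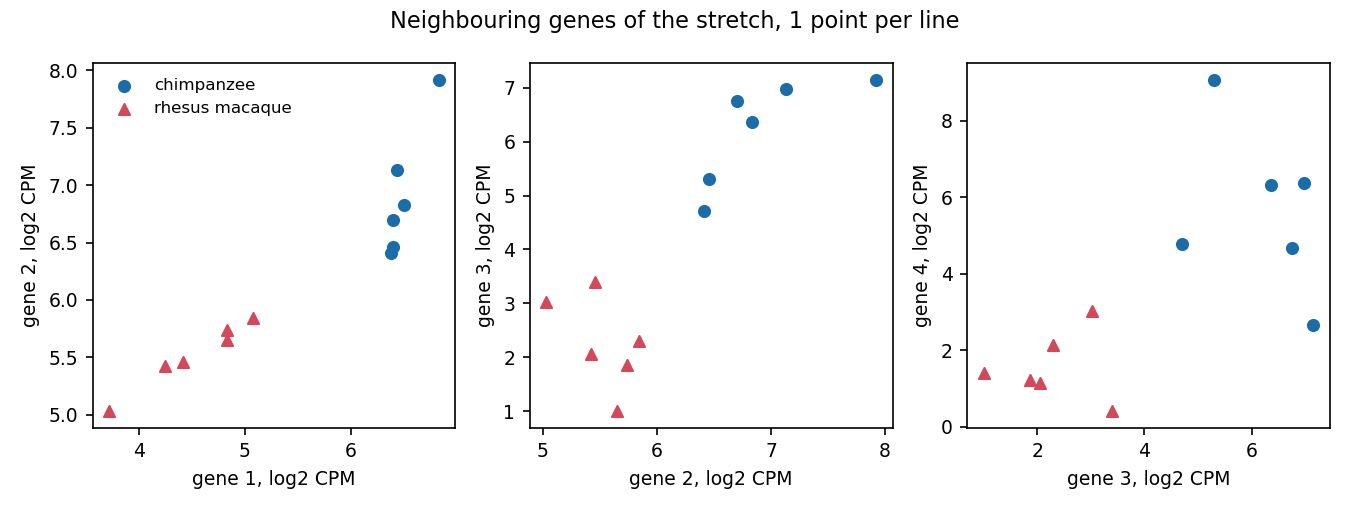
Log2 CPM of neighbouring genes of the stretch in each line, gene 1 against 2, gene 2 against 3 and gene 3 against 4, with chimpanzee lines as blue circles and macaque lines as red triangles. The 6 macaque points fall close to a straight line for genes 1 and 2 (r = 0.991) and show no such order for genes 3 and 4 (r = 0.0691). Genes 3 and 4 have few counts in macaque, where a relation could go unseen.

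The genes elsewhere whose levels were most like those of each gene across lines were sought with the species means removed. Over 12 libraries and 8368 genes, the one most like gene 3 lies on chromosome 6 from 3063974 to 3098261, with a correlation of 0.936, and had 31.0 CPM in chimpanzee and 40.8 CPM in macaque. Next were a gene at 222620204 to 222633777 of chromosome 1 (0.910) and a gene at 79634267 to 79638452 of chromosome 16 (0.901). The gene most like gene 4 lies on chromosome 6 from 30989961 to 31002212, with a correlation of 0.934. The gene most like gene 1 lies on chromosome 1 from 52661538 to 52791331 (0.947) and that most like gene 2 on chromosome 5 from 56505701 to 56594666 (0.957). By this measure no gene of the stretch was among the 3 most like another. Gene 2 ranked 371 in likeness to gene 1, with a correlation of 0.702. Over the 6 macaque lines alone gene 2 ranked 1 of 8368 in likeness to gene 1 (0.991), and over the 6 chimpanzee lines alone it ranked 125 (0.932). Gene 4 ranked 6216 in likeness to gene 3, with -0.275. These correlations are a description over libraries of differing depth, chosen as the highest of many.

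Sex, taken from the labels, was compared within each species over the whole table. None of the 4 genes passed in chimpanzee (3 female against 3 male lines) or in macaque (2 female against 4 male lines), and 0 differed in their sex effect between the species (edgeR quasi-likelihood test, adjusted p under 0.05). At an unadjusted p under 0.05 the count was also 0 of 4 in each, and DESeq2's Wald test called 0. Over all genes edgeR called 0% in each comparison, and the share below an unadjusted p of 0.05 was 6.93% in chimpanzee, 2.18% in macaque and 5.07% for the species by sex term. DESeq2 called 0.531%, 0.0319% and 0.133% of the genes it could adjust in the same 3 comparisons. Gene 4 averaged 62.1 CPM in chimpanzee females and 191 CPM in chimpanzee males, a log2 difference, female minus male, of -1.62 (standard error 1.16, edgeR adjusted p = 0.871). Without chimpanzee replicate 5, a male line, that difference was 1.92. Gene 3 averaged 104 CPM in chimpanzee females and 68.4 CPM in males, a difference of 0.62 (standard error 0.65, edgeR adjusted p = 0.926). Without chimpanzee replicate 1, a male line, that difference was 1.68 (standard error 0.59, edgeR adjusted p = 0.254), and without replicate 2, also male, 0.25. Gene 1 averaged 30.4 CPM in macaque females and 19.8 CPM in males, a difference of 0.61 (standard error 0.32, edgeR adjusted p = 1).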

How the data were processed

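Exon counts of 12 libraries, 6 of chimpanzee and 6 of rhesus macaque LCLs, were analysed. Per the labels' protocols, total RNA (Qiagen RNeasy) gave gel-sized, PCR-amplified Illumina libraries, sequenced on a Genome Analyzer II with no step that keeps strand. The authors deposited raw counts per exon as whole numbers, listing only exons with at least 1 count, and a missing exon was taken as 0. Both species use 1 set of exon names and coordinates. For the aligner, genome build and exon matching, sources used here give nothing, and counts are not of unique molecules.

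Exon counts were summed per gene. The species fit was edgeR 4.0.16 (limma 3.58.1, R 4.3.3), quasi-likelihood with the robust option, TMM scaling, species as the only term and the default filter (minimum count 10, minimum total 15). Benjamini-Hochberg adjustment ran over 9440 genes. The standard error was the log2 fold change divided by the square root of F. CPM used TMM-scaled library sizes, and log2 CPM a prior count of 2. Sex was tested with 4 groups, species by sex. DESeq2 1.42.0 was an alternative. Correlations used exact permutation of 720 pairings, and those with library total were added after seeing the data. All members are described, with the 3 nearest tested genes on each side and, for likeness (mean of at least 10 CPM), the 3 leading genes for gene 3 and the first for the others. The likeness rule had been written for DENND2D, whose identifier could not be paired, so it was run for genes 1 to 4. The lists of related genes and of cell type markers need gene names and were not run. The members and lists were chosen with earlier results of these data known. Replicate numbers follow the order of the samples and pair nothing.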

Additional observations from a re-analysis of the deposited data

Results flagged for a closer look

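Gene 1 in chimpanzee replicate 1 stood apart from the other chimpanzee lines. It had 113 CPM, against 82.4 to 89.5 CPM in the other 5, and its gap to the nearest line took 0.74 of the whole chimpanzee range on the log2 CPM scale, above Dixon's 95% critical value for 6 samples. This was 1 of 8 groups examined (4 genes in 2 species), and chance alone gives such a gap in about 1 in 20 groups. The same library had the fewest counts of all 12, 1434241, and was also the highest chimpanzee line for genes 2 and 3 and the lowest for gene 4. Over the 6 chimpanzee lines gene 1 gave r = -0.566 with the log2 library total (exact permutation test, two-sided, p = 0.332, adjusted over 8 relations p = 0.443) and rho = 0.0857 (exact permutation p = 0.919, adjusted p = 1.0). Without replicates 1 and 6 r was 0.845 over 4 lines, so the sign rests on those libraries.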

How the results depend on the processing

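The stretch was picked for the species contrast, and genes 3 and 4 passed the expression filter through the chimpanzee lines. The calls under other settings are therefore a description and no support. Genes 1 to 4 were called higher in chimpanzee, and 0 lower, in each of the 10 other settings of the species fit and without each of the 12 libraries in turn. The edgeR fit without its robust option was added after seeing the data. With libraries left out, the log2 fold change ran from 1.79 to 2.04 for gene 1, from 1.18 to 1.54 for gene 2, from 3.96 to 4.51 for gene 3 and from 3.96 to 5.94 for gene 4. Under the other settings it ran from 1.74 to 2.23, from 1.41 to 1.73, from 3.70 to 4.23 and from 5.33 to 6.06. Of the 6 correlations of neighbours, 2 passed on library totals with no scaling factor, the added pair being genes 1 and 2 in chimpanzee (r = 0.934, exact permutation test, adjusted p = 0.0417); the cause was not tested. The SD between lines was higher in chimpanzee for 3 of the 4 genes and, without chimpanzee replicate 2, for 2 of 4. With a prior count of 0.5 the SDs of gene 3 were nearly equal, 0.99 in chimpanzee and 0.98 in rhesus macaque. No sex difference of genes 1 to 4 passed in any setting run. With libraries left out, the direction of 6 uncalled sex values turned. In chimpanzee they ran from -0.17 to 0.04 for gene 1, from -0.44 to 0.45 for gene 2 and from -2.21 to 1.92 for gene 4. In rhesus macaque gene 4 ran from -0.80 to 0.85. The species by sex difference ran from -0.84 to 0.06 for gene 2 and from -2.47 to 1.99 for gene 4. Where 1 female rhesus macaque line remained, its spread was assumed to be that of the other groups. No paired analysis was possible because the replicate numbers follow sample order. Depth limits genes 3 and 4 in rhesus macaque, with 69 and 47 counts in all.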
